A study of Mus musculus with 4 samples.

Results

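Oxidative phosphorylation is carried out by 5 protein complexes of the inner mitochondrial membrane, and the genes described here encode their nuclear subunits. Members were chosen by symbol from the array's annotation: every gene starting with Nduf, Uqcr, Atp5, Cox4, Cox5, Cox6, Cox7 or Cox8, together with Sdha, Sdhb, Sdhc and Sdhd. The rule found 89 of the 19938 genes that had a probe set with a single gene symbol. They comprise 34 genes of complex I, 7 complex I assembly factors (the Ndufaf genes), 4 genes of complex II, 8 of complex III, 19 of complex IV and 17 of complex V. Ndufa4 was counted with complex IV, to which its protein belongs despite its name, and so was its paralogue Ndufa4l2.

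Complex I takes electrons from NADH and complex II takes them from succinate, and both pass them to ubiquinone. Complex III moves them on to cytochrome c, and complex IV delivers them to oxygen. Protons pumped along this route flow back through complex V, the ATP synthase. Most subunits are encoded in the nucleus and a few in mitochondrial DNA, so the 2 genomes have to be expressed together. Blood stem cells are known for relying on glycolysis more than their progeny, with mitochondrial respiration gaining weight as the cells leave quiescence and commit to a lineage.

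RNA came from LSK cells of mouse bone marrow, the lineage-negative, Sca-1-positive and Kit-positive fraction that holds stem cells and early progenitors. The 2 Hdac3-null arrays held LSK/Flt3- cells of the genotype Vav-Cre/Hdac3Flox/-, in which a Cre recombinase under the blood cell promoter Vav removes the floxed allele of Hdac3, a histone deacetylase, over an allele already deleted. Each wild-type fraction, LSK/Flt3- or LSK/Flt3+, had a single array, and Flt3 is a cytokine receptor that marks the fraction with lymphoid potential. All animals were of the C57BL/6 background, each array held cells pooled from 5 to 30 mice, and neither the age of the mice nor whether the wild-type mice carried Vav-Cre is stated in the labels. No source says that the null replicates came from separate mice, so p-values reflect the spread between these arrays alone, and that spread may be technical.

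Levels are the deposited log2 values, and a difference of 1 on this scale is 2-fold. Hdac3 itself was at 5.71 and 5.04 on null replicates 1 and 2, 6.18 on the wild-type Flt3- array and 6.33 on the Flt3+ array, a difference that did not pass the test (limma, adjusted p = 1 against either). Of the gate genes, Kit was between 10.11 and 10.77 on all 4 arrays, and the Sca-1 gene Ly6a was not analysed here. Flt3 was at 7.84 and 7.02 on the null arrays, 9.18 on the wild-type Flt3- array and 10.07 on the Flt3+ array, so null and wild-type Flt3- cells were not alike in the gene of their shared gate. Xist, the RNA of the inactive X chromosome, was at 10.84 and 9.67 on the null arrays, against 4.23 and 3.90 (limma, adjusted p = 0.00362 and 0.000515). The Y-linked Kdm5d was at 8.02 and 7.31, against 8.66 and 8.32. The sex of the pooled mice is not stated in the labels, and genotype and the sexes in a pool cannot be told apart in any comparison of null with wild type here. Over all genes, the array medians were 5.70 and 5.53 for the null arrays and 5.50 and 5.58 for the wild-type ones. The SD over genes was 1.80 on null replicate 1, against 1.87 to 1.92 on the others. With 4 arrays precision is limited, and the median standard error of a null minus wild-type difference was 0.34. In RNA of sorted pools, fewer cells of a type and less RNA per cell cannot be told apart.

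No oxidative phosphorylation gene differed between Hdac3-null and wild-type LSK/Flt3- cells by the test. In a simulation of this comparison 0% of genes with a 2-fold change were recovered. The absence of calls therefore does not show that the genes were unchanged. Of the 89 members, 0 passed limma's test with Benjamini-Hochberg adjustment over all genes, which called 0.0201% of all genes tested. At an unadjusted p under 0.05, 1 member was lower and 0 were higher, against 1.3% and 1.1% of all genes. The median null minus wild-type difference was -0.04 over the members and 0.09 over all genes. It was -0.16 and -0.02 with array medians equalised, and -0.13 and 0.07 with both wild-type arrays as 1 group. Mean levels were lower in null cells for 57 of 89 members, or 64% of them, against 34.9% of all genes. That all-gene share was not matched for level. At a mean level of at least 6 the median differences were -0.06 over 83 members and 0.005 over all 8418 genes. The gene that reached the unadjusted threshold was Cox6b2, a form of complex IV subunit 6B known from testis.

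This median was made of null arrays that lay on opposite sides of the wild-type array. On null replicate 1 the median member was at -0.36 from wild-type LSK/Flt3- cells, and on null replicate 2 at 0.22. The medians of all genes were 0.15 and 0.03. For 55 members, 61.8% of them, replicate 1 lay below the wild-type array and replicate 2 above it, which held for 12.8% of all genes. The reverse order was seen in 3 members, against 25.7% of all genes. Both null arrays were below wild-type LSK/Flt3- cells in 18 members (20.2%, against 19.9% of all genes) and above them in 13 (14.6%, against 41.3%). The share of members with both null arrays below was therefore close to that of all genes, but these all-gene shares were not matched for level. Replicate 1 was below replicate 2 in 35% of all genes, and in 53.2% of those with a mean level of at least 6.

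**Figure D1:**
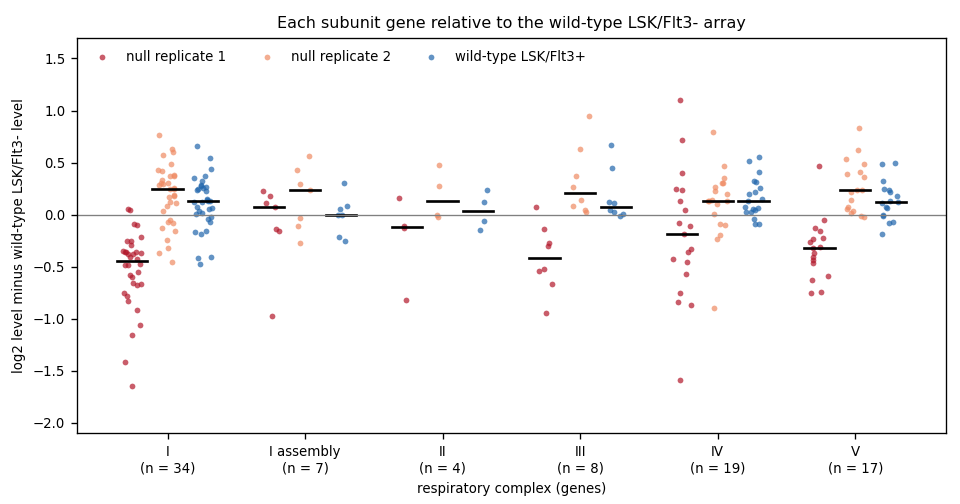
Each point is 1 gene, with its log2 level minus its level on the wild-type LSK/Flt3- array on the y axis, by respiratory complex on the x axis, for null replicate 1, null replicate 2 and the wild-type LSK/Flt3+ array; black bars are medians. In complex I the medians are -0.45, 0.24 and 0.13, so the null arrays fall on either side of 0, and the same holds for complexes II, III, IV and V.

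Complex I genes showed this split, with replicate 1 below and replicate 2 above, in 23 of 34, against 12.8% of all genes. Their median was at -0.45 on null replicate 1 and 0.24 on replicate 2 relative to wild-type LSK/Flt3- cells, and the mean of both null arrays was at -0.13. The 6 measured core subunits, those at the heart of electron transfer, had medians of -0.51 and 0.19. Ndufs8, a core subunit that binds iron-sulfur clusters, was at 6.53 on null replicate 1, 8.56 on null replicate 2, 8.18 on the wild-type Flt3- array and 8.45 on the Flt3+ array. Null replicate 1 was the one low array, and the gap of -2.03 to replicate 2 was the widest of all 89 members. Ndufs7, another iron-sulfur subunit, was at 6.37 and 7.67 on the null arrays, against 7.04 and 7.31 on the wild-type ones. Ndufv1, which holds the NADH binding site, was at 7.48 and 8.53, against 8.23 and 8.19. In both genes the wild-type values lay between those of the null arrays.

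Not every core subunit took part in the split. Ndufv2 was at 9.35 and 9.31 on the null arrays and at 9.44 and 9.28 in wild-type LSK/Flt3- and LSK/Flt3+ cells. Ndufs1, the largest subunit of the complex, was at 8.92 and 8.97, against 9.13 and 8.94. All 4 arrays thus lay close together for both genes.

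Among the accessory subunits of complex I, Ndufb3 had the next widest gap. It was at 5.20 and 7.10 on null replicates 1 and 2, 6.61 on the wild-type Flt3- array and 7.16 on the Flt3+ array, so that again replicate 1 alone was low. The complex I members farthest from wild-type LSK/Flt3- cells with both null arrays on 1 side were Ndufb10, Ndufa1 and Ndufb9, accessory subunits of the membrane arm. Ndufb10 was at 8.87 and 9.34 on the null arrays, 9.79 on the wild-type Flt3- array and 9.38 on the Flt3+ array. Its null minus wild-type LSK/Flt3- difference was -0.68 ± 0.36 (SE; limma, adjusted p = 1). Ndufb9 was at 9.20 and 9.66, against 10.03 and 9.56, with a difference of -0.60 ± 0.36 (SE; limma, adjusted p = 1). For both genes it was the wild-type LSK/Flt3- array that stood above the other 3, wild-type LSK/Flt3+ included. The X-linked gene Ndufa1, for which the sex of the pools cannot be told apart from the genotype, was at 9.63 and 10.73, against 10.79 and 10.84, and its difference of -0.61 ± 0.44 (SE; limma, adjusted p = 1) rested on replicate 1. On replicate 2 alone it was -0.05. Ndufb11 of complex I and Cox7b of complex IV are X-linked as well.

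The 7 complex I assembly factors help to build the complex and are not part of it. Their medians were 0.08 on null replicate 1 and 0.24 on replicate 2 relative to wild-type LSK/Flt3- cells. The split with replicate 1 below and replicate 2 above was seen in 1 of them, against 12.8% of all genes. Ndufaf2 was at 8.44 and 9.14 on the null arrays, against 9.41 on the wild-type Flt3- array and 9.19 on the Flt3+ array (difference from LSK/Flt3- -0.62 ± 0.40, SE; limma, adjusted p = 1). Ndufaf6 went the other way, at 6.80 and 7.14 against 6.58 and 6.66 (0.39 ± 0.36, SE; limma, adjusted p = 1). Ndufaf3 had a smaller difference in the same direction, at 6.56 and 6.91 against 6.48 and 6.78 (0.25 ± 0.36, SE; limma, adjusted p = 1).

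Complex II, also an enzyme of the citric acid cycle, consists of the 4 Sdh subunits. Sdha, the flavoprotein that oxidises succinate, was at 9.78 and 9.89 on null replicates 1 and 2, 9.89 on the wild-type Flt3- array and 9.75 on the Flt3+ array. Its arrays lay within 0.15 of each other, and its null minus wild-type LSK/Flt3- difference of -0.06 turned to 0.01 when both wild-type arrays were taken as 1 group. Sdhb, the iron-sulfur subunit, was at 8.26 and 9.05, against 9.08 and 9.32, so that replicate 1 was low and replicate 2 was close to wild-type LSK/Flt3- cells. Its difference was -0.42 ± 0.41 (SE; limma, adjusted p = 1). Sdhc and Sdhd anchor the enzyme in the membrane. Sdhc was at 8.98 and 9.59, against 9.11 and 9.24, and Sdhd at 7.10 and 7.21, against 6.94 and 6.88. Both null arrays were above both wild-type arrays for Sdhd (0.22 ± 0.35, SE; limma, adjusted p = 1).

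In complex III, null replicate 1 was below replicate 2 in all 8 genes and was the lowest of the 4 arrays in 7. Over all genes these held for 35% and 19.4%. Uqcr11, a small subunit, was at 7.30 and 8.87 on null replicates 1 and 2, 8.24 on the wild-type Flt3- array and 8.68 on the Flt3+ array. Uqcrq, another small subunit, was at 7.77 and 9.27, against 8.32 and 8.98. In both genes the null arrays formed the extremes and enclosed the wild-type arrays. The catalytic Rieske iron-sulfur protein Uqcrfs1 did not share this, at 8.63 and 8.70 against 8.56 and 8.60. It was the complex III member with both null arrays on 1 side of the wild-type LSK/Flt3- array, above it by 0.11 ± 0.35 (SE; limma, adjusted p = 1), and the difference was -0.01 with array medians equalised. The core proteins Uqcrc1 and Uqcrc2 had gaps between the null arrays of -0.67 and -0.19.

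Complex IV contains subunits with tissue-specific forms, and those forms differed in how they behaved on these arrays. Cox6b2 was at 6.85 and 7.54 on null replicates 1 and 2, 8.44 on the wild-type Flt3- array and 8.70 on the Flt3+ array. Both null arrays were below both wild-type arrays without overlap, a pattern seen in 10 of the 89 members (11.2%) and in 11.7% of all genes. Its null minus wild-type LSK/Flt3- difference was -1.24 ± 0.40 (SE; limma, unadjusted p = 0.0115, adjusted p = 1), a level 2.37-fold higher in wild-type cells. On replicate 1 alone it was -1.59 and on replicate 2 alone -0.90. Over the 8 other settings its adjusted p ranged from 0.333 to 1. No other gene overlaps Cox6b2 in RefSeq, and it had 1 probe set.

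Cox6b1, the form of the same subunit used in most tissues, was at 11.06 and 12.03 on the null arrays, 11.90 on the wild-type Flt3- array and 11.95 on the Flt3+ array. Here replicate 2 was level with the wild-type arrays and replicate 1 alone was low. The testis and the common form of subunit 6B therefore had different patterns over the 4 arrays, although the difference between them was not tested.

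The promoters of both forms are shown because they are the paralogues whose patterns differed, beside those of Sdhb, Uqcr11 and Ndufs8, which were lowest on null replicate 1. Each sequence covers the 250 bases before the gene's start in RefSeq (GRCm38.p6), 5′ to 3′ on the gene's strand. Capitals mark a match to CCGGAAG, the core bound by GABP and other ETS factors, to GCATGCGC, the core of the NRF1 site, or to AAGATGGC, the core of the YY1 site, on either strand. These are regulators long associated with respiratory chain genes. Cox6b2 lies at chr7:4753095-4753344 (minus strand), Cox6b1 at chr7:30626115-30626364 (minus), Sdhb at chr4:140961021-140961270 (plus), Uqcr11 at chr10:80406822-80407071 (minus) and Ndufs8 at chr19:3912775-3913024 (minus).
Cox6b2: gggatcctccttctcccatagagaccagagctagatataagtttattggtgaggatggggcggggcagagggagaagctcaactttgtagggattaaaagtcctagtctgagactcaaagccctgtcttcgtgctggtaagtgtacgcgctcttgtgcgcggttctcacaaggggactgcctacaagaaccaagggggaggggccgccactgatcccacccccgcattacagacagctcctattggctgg
Cox6b1: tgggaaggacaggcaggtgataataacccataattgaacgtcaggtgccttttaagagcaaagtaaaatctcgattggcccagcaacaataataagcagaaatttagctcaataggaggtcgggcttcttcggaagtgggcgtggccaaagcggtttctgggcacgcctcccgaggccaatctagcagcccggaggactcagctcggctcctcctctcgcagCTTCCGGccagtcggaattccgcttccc
Sdhb: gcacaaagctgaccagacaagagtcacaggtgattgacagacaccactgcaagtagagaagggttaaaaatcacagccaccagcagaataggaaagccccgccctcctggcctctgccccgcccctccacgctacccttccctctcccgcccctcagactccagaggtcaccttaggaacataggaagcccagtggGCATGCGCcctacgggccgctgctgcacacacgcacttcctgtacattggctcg
Uqcr11: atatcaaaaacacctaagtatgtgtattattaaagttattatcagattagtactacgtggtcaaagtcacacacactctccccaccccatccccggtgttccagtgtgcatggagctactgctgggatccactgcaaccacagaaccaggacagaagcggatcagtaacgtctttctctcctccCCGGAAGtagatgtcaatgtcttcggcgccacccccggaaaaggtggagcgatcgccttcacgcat
Ndufs8: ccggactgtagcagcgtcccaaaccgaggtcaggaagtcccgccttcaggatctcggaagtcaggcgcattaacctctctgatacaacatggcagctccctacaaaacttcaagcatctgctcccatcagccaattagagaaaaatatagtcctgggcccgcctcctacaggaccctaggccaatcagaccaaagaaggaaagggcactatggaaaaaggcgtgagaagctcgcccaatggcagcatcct

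The ETS core stood in the windows of Cox6b1 and Uqcr11 and the NRF1 core in that of Sdhb, and none of the 3 motifs was found in those of Cox6b2 and Ndufs8. A promoter window was matched by symbol for 73 members. The ETS core was in 17.8% of them and in 10.2% of the 17491 protein-coding genes with a window. The NRF1 core was in 12.3% against 3.32%, and the YY1 core in 1.37% against 1.77%. At least 1 of the 3 was present in 20 of the 73 members (27.4%), against 14.3% of all windows. Cox6a1 and Atp5l held both the ETS and the NRF1 core, and Atp5j both the ETS and the YY1 core. The end of the ETS core and the start of the YY1 core share the letters AAG, so these motifs can overlap. A match is not evidence of binding, and the absence of these letters says nothing of the factors.

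The other paralogue groups of complex IV had no tissue form that was lower on both null arrays than on both wild-type arrays. Cox6a1, the common form of subunit 6A, was at 9.79 and 10.50 on null replicates 1 and 2 and at 10.36 and 10.38 in wild-type LSK/Flt3- and LSK/Flt3+ cells. Its muscle form Cox6a2 was at 6.46 and 5.95, against 6.05 and 6.61. Cox8a, the common form of subunit 8, was at 7.39 and 8.41, against 8.14 and 8.29. In the common forms replicate 1 was the lowest array, and in Cox6a2 replicate 2 was.

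Cox8b, the muscle form of subunit 8, was at 5.52 and 4.72 on the null arrays, against 4.42 and 4.74, and had a null minus wild-type LSK/Flt3- difference of 0.70 ± 0.37 (SE; limma, adjusted p = 1). Cox8c, a testis form, was at 5.05 and 4.95, against 4.81 and 4.73. Cox7a1, the muscle form of subunit 7A, was at 5.35 and 5.91, against 5.11 and 5.32 (0.52 ± 0.35, SE; limma, adjusted p = 1). For these 3 genes both null arrays were above wild-type LSK/Flt3- cells, which held for 41.3% of all genes. Their mean levels over the 4 arrays were low, at 4.85 for Cox8b, 4.88 for Cox8c and 5.42 for Cox7a1. No detection calls were used. Cox7a2, the liver form of subunit 7A, was at 7.93 and 9.27, against 8.80 and 9.32, with replicate 1 alone low.

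Cox4i2, a lung form of subunit 4, was at 5.65 and 5.52 on the null arrays and at 5.52 and 5.55 on the wild-type ones, while the common form Cox4i1 was at 10.24 and 10.80, against 10.60 and 10.65. Cox7b2, a testis form, was at 3.67 and 3.54, against 3.62 and 3.69, and Cox7b at 10.53 and 10.97, against 10.61 and 10.81. With its other probe set Cox7b was at 8.18 and 9.31, against 8.66 and 9.10, a wider gap between the null arrays. Ndufa4 was at 10.62 and 10.81, against 11.04 and 11.00, and Ndufa4l2, which is induced by hypoxia, at 5.06 and 4.57, against 4.34 and 4.66. Of the 19 complex IV genes, 6 had null replicate 1 above replicate 2: Cox4i2, Cox6a2, Cox7b2, Cox8b, Cox8c and Ndufa4l2. All but Cox6a2 had a mean level under 6 over the 4 arrays, where null replicate 1 was above replicate 2 for most genes of the array.

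**Figure D2:**
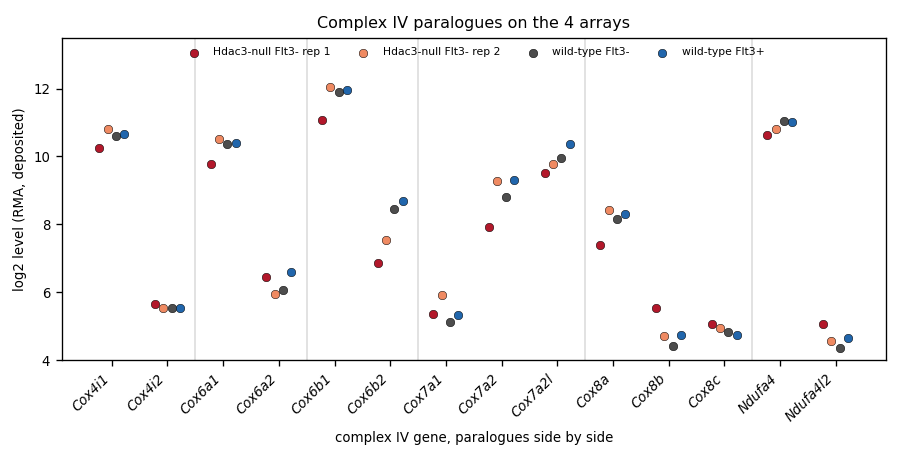
The y axis is the deposited log2 level on each of the 4 arrays (1 point per array), with complex IV paralogues side by side on the x axis; levels of different genes are not comparable because each has its own probes. Cox6b2 has both null points (6.85 and 7.54) under both wild-type points (8.44 and 8.70), while Cox6b1 has null replicate 1 alone at the bottom (11.06).

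Complex V had the split in 14 of its 17 genes, against 12.8% of all genes. Null replicate 1 was below replicate 2 in all 17, against 35% of all genes, a share that depended on scaling. Atp5d, the delta subunit, was at 7.00 and 8.58 on null replicates 1 and 2, 7.75 on the wild-type Flt3- array and 8.25 on the Flt3+ array. Atp5b, the catalytic beta subunit, was at 10.60 and 11.01, against 11.04 and 10.85 (difference from LSK/Flt3- -0.23 ± 0.32, SE; limma, adjusted p = 1). Atp5c1, the gamma subunit of the rotating stalk, was at 10.62 and 10.83, against 10.84 and 10.97 (-0.12 ± 0.31, SE; limma, adjusted p = 1). Both had narrower gaps than Atp5d, and on replicate 2 they were within 0.03 of wild-type LSK/Flt3- cells. Atp5a1, the alpha subunit, was at 10.47 and 11.09, against 10.73 and 10.67, with the wild-type arrays between the null ones.

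Atp5pb, the b subunit of the peripheral stalk, was the complex V gene farthest from wild-type LSK/Flt3- cells, at 8.99 and 9.14 against 8.53 and 8.85 (0.54 ± 0.35, SE; limma, adjusted p = 1). Its other probe set gave 0.16. Atp5g1, Atp5g2 and Atp5g3 encode the same mature protein of the membrane ring. Atp5g1 was at 7.88 and 8.96, against 8.48 and 8.71, and Atp5g2 at 9.29 and 10.14, against 9.61 and 10.09. Atp5g3 was at 10.54 and 10.78, against 10.70 and 10.69. Replicate 1 was the lowest array for all 3, with a gap to replicate 2 of -1.08, -0.85 and -0.23.

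**Figure D3:**
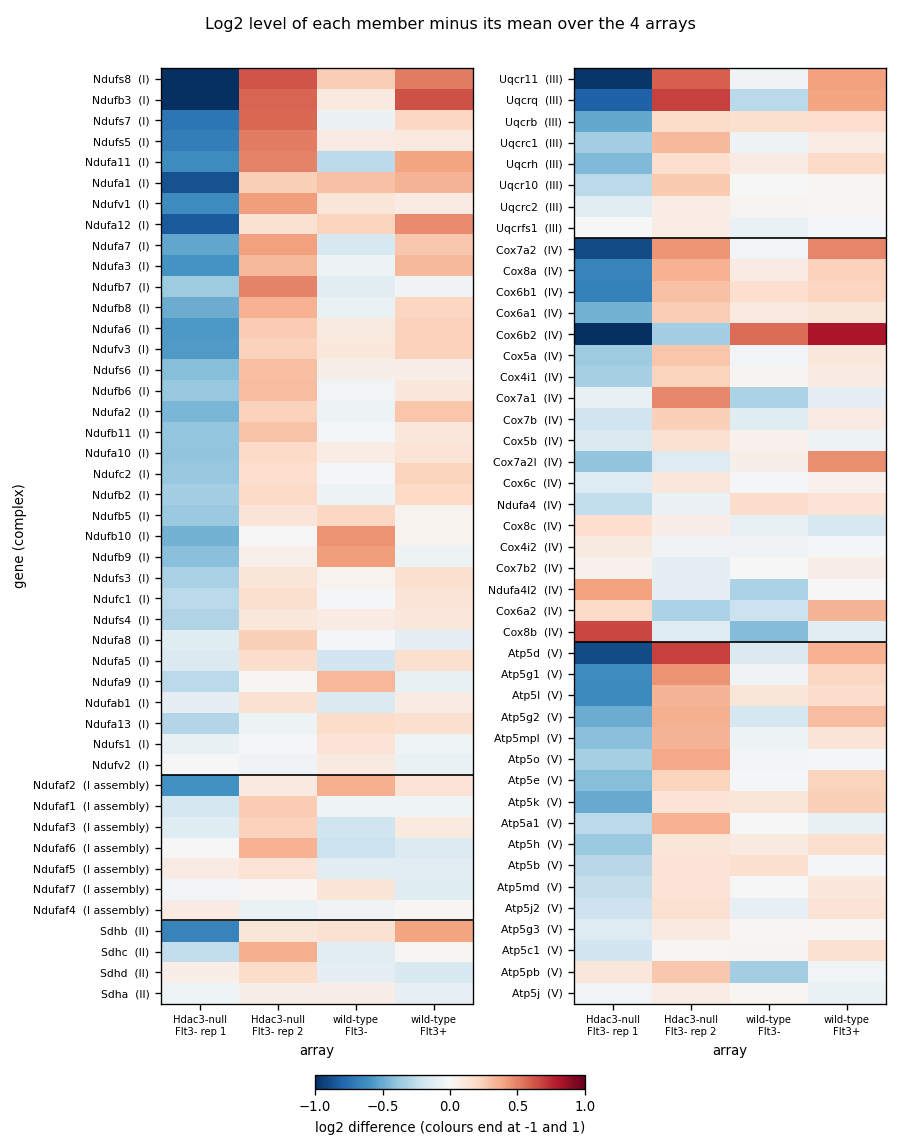
Rows are the 89 genes by complex and columns the 4 arrays; the colour is the log2 level minus the gene's mean over the arrays, red above and blue below, with colours ending at -1 and 1. Null replicate 1 is the lowest array for 69 of the 89 genes and null replicate 2 the highest for 53, against 19.4% of all genes for each. Cox6b2 is low on both null arrays.

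Set against wild-type LSK/Flt3+ cells, a comparison that also holds the difference of sorted fraction and uses the same null arrays, 0 of 89 members passed the limma test, which called 0.316% of all genes, 0.0351% as higher and 0.281% as lower in null cells. At an unadjusted p under 0.05, 1 member was lower, again Cox6b2, and 0 were higher, against 2.31% and 1.13% of all genes. The median difference was -0.17 over the members and 0.05 over all genes, with -0.43 on null replicate 1 and 0.09 on replicate 2. Both null arrays were below the Flt3+ array in 23 members (25.8%), against 25.1% of all genes, and above it in 11 (12.4%), against 35%. Cox6b2 was at -1.50 ± 0.40 (SE; limma, unadjusted p = 0.00393, adjusted p = 0.406), and its adjusted p ranged from 0.172 to 0.535 over the 7 other settings. The next largest differences with both null arrays on 1 side were -1.01 ± 0.62 (SE) for Ndufb3, -0.82 ± 0.44 (SE) for Ndufa12, an accessory subunit of complex I, and -0.73 ± 0.34 (SE) for Cox7a2l, a factor of supercomplex assembly (limma, adjusted p = 1 for each). Cox7a2l was at 9.51 and 9.77 on the null arrays, against 9.96 and 10.37, below both wild-type arrays. With its other probe set it was at -0.16. On replicate 2 alone, Ndufb3 was at -0.06, so its difference rested on replicate 1.

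Between the wild-type fractions, 67 of 89 members (75.3%) were higher in LSK/Flt3+ than in LSK/Flt3- cells, against 56.6% of all genes. These are single arrays and no test was made. The median was 0.11 for the members and 0.04 for all genes, or 0.03 and -0.04 with array medians equalised, where the medians of the assembly factors and of complexes II and III turned to -0.08, -0.05 and -0.0018. Under the deposited scaling 0 members were at least 2-fold apart, against 1.1% of all genes. Uqcrq had the largest, 0.67, followed by Ndufa11 of complex I at 0.66, which was at 7.97 in LSK/Flt3- and 8.63 in LSK/Flt3+ cells. Cox6a2 was at 0.55, Ndufb3 at 0.54, Cox7a2 at 0.51 and Atp5d and Atp5g2 at 0.49 each. Ndufb9 at -0.47 and Ndufb10 at -0.41 went the other way. For Uqcrq, Ndufa11, Ndufb3, Cox7a2, Atp5d and Atp5g2 the gap between the null replicates of 1 genotype, from -1.89 for Ndufb3 to -0.85 for Atp5g2, was wider than the difference between the fractions. For Cox6a2 (0.50), Ndufb9 (-0.47) and Ndufb10 (-0.47) the gap was of about the size of the difference.

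The gap between the null arrays ran through the whole set. Null replicate 1 was below replicate 2 in 81 of 89 members (91%), against 35% of all genes, and at least 2-fold below it in 13 (14.6%), against 1.46%. It was the lowest of the 4 arrays in 69 members, against 19.4% of all genes, and the highest in 5, against 47.3%. Null replicate 1 was at least 2-fold above replicate 2 in 0 members, against 1.36% of all genes. The median gap was -0.55 over the members and 0.14 over all genes. All genes differ from the members in level, but the gap was also there at like levels. At levels from 7 to 8 the median was -0.81 over 14 members and -0.09 over all 2397 genes, and at levels from 10 to 11 it was -0.55 over 21 members and -0.05 over all 357. The comparison with all genes depended on scaling. With array medians equalised the median gap was -0.73 for the members and -0.04 for all genes, and 86 members (of all genes 54.7%) were lower on replicate 1. After quantile normalization these were -0.54, -0.09, 84 and 60.9%, and after cyclic loess -0.46, -0.03, 81 and 53.9%. All 42 probe sets of the 17 members with more than 1 had replicate 1 below replicate 2. Probe sets of the same gene on the same arrays are not independent of each other.

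**Figure D4:**
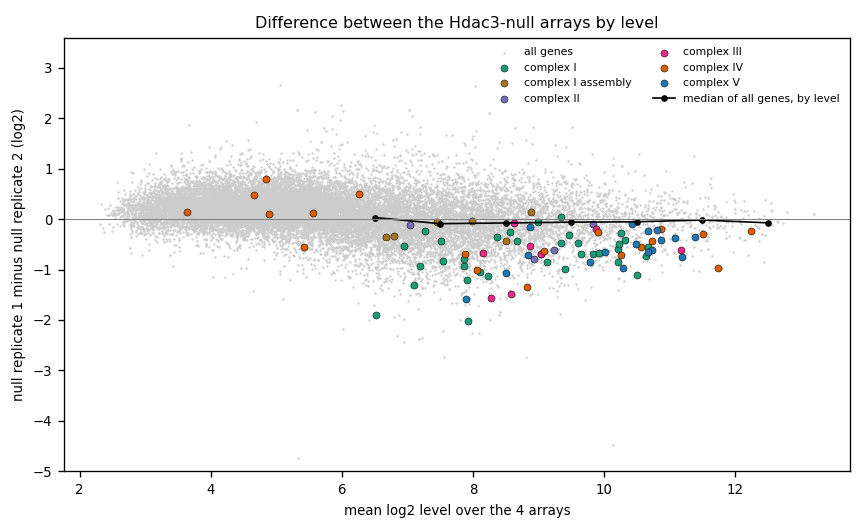
The x axis is a gene's mean log2 level over the 4 arrays and the y axis null replicate 1 minus null replicate 2 (log2); grey points are all genes, coloured points the members by complex, and the black line joins medians of all genes in steps of 1 from a level of 6. The line stays between -0.09 and 0.03, while 80 of the 83 members with a level of at least 6 lie below 0.

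Some lists of markers of other cells moved with this gap, and others did not. All 5 measured erythroid markers of 7 listed were lower on null replicate 1 than on replicate 2, with a mean log2 level of 6.54 and 7.86, against 8.28 on the wild-type Flt3- array and 7.80 on the Flt3+ array. Car1, an erythroid enzyme gene, was at 6.44 and 10.92 on the null arrays, against 11.81 and 11.37 on the wild-type ones. Its gap of -4.49 was the widest of the 5 and weighs most in the erythroid means. Rhag, a red cell membrane protein gene, was at 4.80 and 6.07, against 7.61 and 6.82. Klf1, Epor and Tfrc differed between the null arrays by -0.38, -0.21 and -0.25. Both measured megakaryocyte markers, 7 of 8 granulocyte and monocyte markers and all 3 mast and basophil markers were also lower on replicate 1. The 3 measured gate markers and the 3 endothelial markers were higher there. Of macrophage and dendritic markers 2 of 5 were lower, of B markers 1 of 3, and of T and NK markers 1 of 4. Over all genes 35% were lower on replicate 1, and 53.2% of those with a mean level of at least 6. The granulocyte and monocyte list had mean levels of 7.95 and 8.34 on the null arrays and 7.17 and 7.26 on the wild-type ones. The part of these cells, and of the narrower spread of values on null replicate 1, in the members' gap was not tested.

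Other genes of energy metabolism were examined in lists. The nuclear genes for mitochondrial ribosomal proteins, which translate the mitochondrial messages, had the same kind of gap, with null replicate 1 below replicate 2 in 71 of 77 and a median gap of -0.49. Their median null minus wild-type LSK/Flt3- difference was -0.02, with 34 higher and 43 lower (55.8%, against 34.9% of all genes lower) and 0 past the limma test. At an unadjusted p under 0.05, 0 of them differed from LSK/Flt3- and 1 from LSK/Flt3+ cells. The other assembly factors, 35 of 40 measured, had a median gap of -0.26 and a difference of 0.06, with 19 higher and 16 lower (45.7%). The 16 measured genes of the citric acid cycle and pyruvate entry stood at -0.24 for the gap and -0.11 for the difference, with 5 higher and 11 lower (68.8%). The 7 electron carriers and related proteins were at -0.21 and -0.14, with cytochrome c1 (Cyc1) at 7.54 and 8.32 on the null arrays, against 8.08 and 8.31.

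Glycolysis genes had a median gap of -0.10 between the null arrays, and 15 of the 22 measured were higher and 7 lower in null than in wild-type LSK/Flt3- cells (median difference 0.14). The share of lower genes, 31.8%, was near the 34.9% of all genes. The all-gene share used for these lists was not matched for level. Over all genes with a mean level of at least 6 the median difference was 0.005. The regulators of mitochondrial biogenesis had a gap of -0.05, with 10 of 17 higher and 7, or 41.2%, lower (median difference 0.04). Among them Nrf1 was at 7.19 and 7.00, against 6.63 and 6.71, and Tfam, which packs and transcribes mitochondrial DNA, at 8.22 and 8.27, against 8.32 and 8.26. None of the genes in these lists passed the limma test against either wild-type array, and 0 were past an unadjusted p of 0.05 other than the mitochondrial ribosomal protein gene Mrpl1 against LSK/Flt3+ cells, which had 0.87 ± 0.36 (SE; adjusted p = 1).

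The 2 measured subunits encoded in mitochondrial DNA did not have the gap, and too few were measured to speak for the others. ND3 of complex I was at 10.56 and 10.53 on null replicates 1 and 2, 10.32 on the wild-type Flt3- array and 10.34 on the Flt3+ array. COX2 of complex IV was at 10.83 and 10.47, against 10.72 and 10.75. These were the 2 mitochondrial genes measured, and on neither was null replicate 1 the lowest array.

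**Figure D5:**
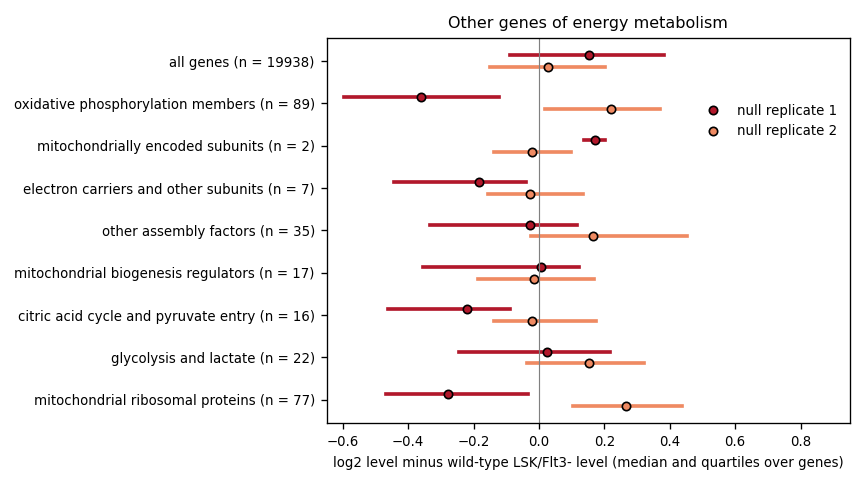
The x axis is the log2 level on a null array minus that on the wild-type LSK/Flt3- array, with the median (point) and quartiles (line) over the genes of each list on the y axis. The null arrays stand apart for the oxidative phosphorylation members (medians -0.36 and 0.22) and the mitochondrial ribosomal proteins (-0.28 and 0.27), and lie within 0.15 of each other for glycolysis (0.02 and 0.15).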

How the data were processed

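The authors deposited log2 expression values per probe set, for which the submitters’ processing notes name RMA and affy 1.23. No detection calls were used. The values held 35556 probe sets, of which 21789 had 1 gene symbol, 1621 several and 12146 none listed; the last kinds stayed out of the tests. A gene with several probe sets, among 19938 in all, was represented by that of the highest mean level.

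All arrays entered 1 fit with 3 groups in limma 3.58.1 (R 4.3.3), with a mean-dependent prior. The null pair gives its 1 residual degree of freedom, beside 9.01 prior ones, and the lone wild-type arrays are taken to vary like the null pair. Tests were two-sided and adjusted by Benjamini-Hochberg at 0.05. The fit was tested on simulated data.

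Members, lists and settings were chosen with earlier results of these data known. Members were named by rule: any past the threshold, in each group of genes the 3 farthest from wild-type LSK/Flt3- cells with both null arrays on 1 side and the 3 farthest apart between the wild-type arrays, complex II, and the paralogues. Those with the widest or narrowest gap between the null arrays, further examples and the genes named from other lists were chosen after their values were seen. Promoters and overlaps were matched by symbol to RefSeq (GRCm38.p6). In its annotation 28 of the 89 members overlap another gene, among them Ndufa1, Ndufv2, Cox6a2, Cox7a2, Uqcrq, Ndufa4l2 and Atp5d. The position of the probes was not used here, so part of such a signal could come from the other gene.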

Additional observations from a re-analysis of the deposited data

How the results depend on the processing

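With each of 8 other settings against wild-type LSK/Flt3- and 7 against LSK/Flt3+ cells, 0 members passed the limma test: the mean of all probe sets, array medians equalised, quantile normalization, cyclic loess, only genes with a mean level of at least 6, robust estimation, a prior without trend and, against LSK/Flt3- alone, both wild-type arrays as 1 group. Leaving out a null array leaves no residual degrees of freedom, so only values were computed. The medians over complexes moved by less than the spread between the null arrays, except that of the 7 assembly factors, 0.08 as reported, which was -0.037 with array medians equalised. Without each null replicate in turn it ranged from 0.0781 to 0.238. That limit is loose, because the null arrays far apart set it, and signs did change within it. Against wild-type LSK/Flt3- cells, complex I went from -0.129 to 0.244 and complex V from -0.0375 to 0.236 without null replicate 1. Complex II went from 0.0573 to -0.0599 with array medians equalised. Complex IV went from -0.0199 to -0.2 over genes with a mean level of at least 6. The difference of Sdha turned to 0.0149 with the wild-type arrays as 1 group and that of Uqcrfs1 to -0.00819 with array medians equalised, and the cause was not tested. The members' gap between the null arrays, with settings chosen after seeing the data, ranged from -0.73 to -0.46. Among the differences between the wild-type arrays, Ndufaf7 (-0.26) was -0.34 with array medians equalised and -0.22 after cyclic loess, and Sdha (-0.14) was -0.22 with array medians equalised. Of the 17 members with several probe sets, 4 had probe sets of opposite sign against wild-type LSK/Flt3- cells, and probe sets of a gene differed by at most 0.38. No paired analysis was possible because the wild-type arrays carry no replicate number and have no second array.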

Other observations

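Probe sets that the annotation gives to a member and to another gene were left out of the counts. The complex I gene Ndufb4 shares 2 probe sets with Ndufb4b. They were at 7.65 and 7.97 on null replicate 1, 8.91 and 9.30 on null replicate 2, 9.24 and 9.61 on the wild-type Flt3- array and 9.02 and 9.37 on the Flt3+ array, so that null replicate 1 was far below the other 3 arrays. The probe set that Ndufs5 shares with its pseudogene was at 8.49 and 9.28 on the null arrays, against 8.85 and 8.83. Cox7c of complex IV shares 3 probe sets with Gm12338, and on each of them null replicate 1 was the lowest array.

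The members farthest apart between the null arrays also tended to differ between the wild-type fractions. Of the 13 members at least 2-fold lower on null replicate 1 than on replicate 2, 12 were higher in wild-type LSK/Flt3+ than in LSK/Flt3- cells, with a median of 0.27, against 55 of the 76 other members and a median of 0.07. Across the 89 genes the correlation of the gap with the difference between the fractions was -0.37 (Pearson) and -0.40 (Spearman), against -0.07 and -0.05 across all genes. The points share the 4 arrays, genes are not independent replicates, and no test was made.

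Beside the subunits, several small assembly factors of the respiratory chain had wide gaps between the null arrays. Cox19, a copper-handling factor of complex IV, was at 6.39 and 7.73, against 6.98 and 7.11 on the wild-type arrays, and the complex III factors Uqcc3 and Uqcc2 were at 6.78 and 8.01, against 7.65 and 7.97, and at 7.28 and 8.41, against 7.87 and 8.38. Others had the reverse order, such as Cox18 at 7.58 and 7.10, against 7.07 and 6.95. These genes were chosen after their values were seen.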
